A study of Schizosaccharomyces pombe with 4 samples.

Results

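The 744 transcripts described here are the annotated non-coding RNAs (ncRNAs) of *Schizosaccharomyces pombe* of which at least 50% lies opposite a single gene on the other strand. They were found by comparing the coordinates of every annotated ncRNA in the deposited table with those of every gene, and they make up 744 of the 1522 annotated ncRNAs and of 11620 transcripts in all. The meiotic ncRNA *sme2* was to be left out, but it lies opposite no gene (0% covered), so nothing changed. Of the 744 antisense ncRNAs, 505 overlap at least 1 CUT or XUT on their own strand and 239 overlap none. CUTs (cryptic unstable transcripts) are RNAs that the study itself segmented from these libraries and kept because they were more abundant without Rrp6. XUTs are RNAs sensitive to loss of Exo2, the cytoplasmic exonuclease. Within the 505, 161 overlap both kinds, 169 only a CUT and 175 only a XUT.

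Total RNA was sequenced strand by strand from rrp6Δ cells, which lack the *rrp6* gene, and from wild-type (WT) cells, with 2 biological replicates of each strain and 4 libraries in all. ERCC RNA was added to the total RNA before rRNA was removed, and the authors scaled each library on it. A value is a normalized read count, and a density is that count per nt of the transcript. The libraries held 75295117 and 64913330 reads on transcripts in rrp6Δ, against 68813840 and 82419985 in WT. The deleted gene checked the labels. *rrp6* had 7.38 and 8 normalized reads in the rrp6Δ libraries and 2352 and 2842 in the WT libraries. The study's methods name 2 media, YES and EMMG, for its cultures without saying which was used for these libraries. The labels give no other allele, treatment or time, and in bulk RNA a change in the number of cells that hold a transcript cannot be told apart from a change in each cell.

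Rrp6 is the exonuclease that is bound to the nuclear form of the RNA exosome, the complex that trims and degrades RNA from its end. In fission yeast it works with the RNA-binding protein Mmi1 and the MTREC complex to remove meiotic mRNAs and many ncRNAs from cells in mitotic growth. Antisense RNA is made on the strand opposite a gene. It can be degraded in the nucleus by the exosome or, once exported, by Exo2 in the cytoplasm, and at some genes its transcription is known to hold the gene down. What the comparison asks here is how far the antisense ncRNAs, and the genes opposite them, differ between cells without and with Rrp6.

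Of the 744 antisense ncRNAs, 488 started inside the bounds of the opposite gene and 256 at or beyond its end. The median distance between the start and that end, in either direction, was 341.5 nt, and 313 started within 250 nt of it. Written from 5′ to 3′ in the direction of the ncRNA, the first 60 nt of 6 ncRNAs are given below, in the RefSeq sequence of the ASM294v3 assembly. They were chosen to show a CUT that rose, a rise inside a coding sequence, a rise with no CUT, 2 RNAs that were not called and 1 that fell.
rpl2702-antisense-1, chrIII:1940243-1940302, minus strand: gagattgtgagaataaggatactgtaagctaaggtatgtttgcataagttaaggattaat
orc1-antisense-1, chrII:2573110-2573169, minus strand: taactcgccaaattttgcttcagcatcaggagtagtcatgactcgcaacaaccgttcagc
rex3-antisense-1, chrI:4767923-4767982, plus strand: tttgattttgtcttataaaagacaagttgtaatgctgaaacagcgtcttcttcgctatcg
spo4-antisense-1, chrII:3829338-3829397, minus strand: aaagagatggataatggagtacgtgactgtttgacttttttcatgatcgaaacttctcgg
tos1, chrIII:1547928-1547987, plus strand: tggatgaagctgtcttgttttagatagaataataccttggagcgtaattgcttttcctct
SPBPB10D8.02c-antisense-1, chrII:83799-83858, plus strand: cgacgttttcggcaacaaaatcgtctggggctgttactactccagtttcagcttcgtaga
The starts of *rpl2702-antisense-1* and *spo4-antisense-1* fall outside genes, and the other starts shown fall in coding sequence on the other strand. In the same assembly, 5113 of 5115 coding sequences opened with ATG at the table's coordinates.

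Mmi1 is known to bind RNA that holds the hexamer UUAAAC, written TTAAAC in DNA. It occurred in the first 500 nt of 165 of the 695 antisense ncRNAs of that length (23.7%), and on the other strand of the same windows in 21.4%. The share was 23.3% in the antisense ncRNAs that rose in rrp6Δ and 24.7% in those tested that did not. It was 24.8% with a CUT or XUT and 21.3% without, 25.7% in the other annotated ncRNAs and 22.1% in genes. These shares are a description of letters, not of binding. Windows of 30 nt around the hexamer, in capitals, are shown for 3 ncRNAs that rose. Each lies in coding sequence of the opposite strand.
sup45-antisense-1, chrI:4692901-4692930, minus strand: ccttctgagttcTTAAACtcataacggatc
rex3-antisense-1, chrI:4769492-4769521, plus strand: caaactatgtgcTTAAACtgacccaaaggt
SPCC777.06c-antisense-1, chrIII:1607572-1607601, plus strand: aacacgcttgtaTTAAACcggttattttta
The hexamer begins 713, 1582 and 996 nt from the starts of these ncRNAs, in the order shown, so none lies in the first 500 nt.

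Antisense ncRNAs were mostly higher in rrp6Δ, and 309 of those that rose overlap a CUT. Of the 718 that passed a filter on low values (about 10 reads in at least 2 libraries), 402 (56%) rose and 7 (0.975%) fell, by limma with an adjusted p under 0.05 and more than a 2-fold change. Among all 11227 transcripts tested by the same rule, 42.6% rose and 0.57% fell. The 11227 include the study's 2509 CUTs, kept for being higher in rrp6Δ, and 2507 of them rose. For all transcripts, the share that rose, the share above WT and the median are thus raised in part by how CUTs were defined. The shares that fell or lay below WT are lowered by it, since no CUT did either. The median log2 fold change was 1.12 over the antisense ncRNAs and 0.66 over all transcripts. The 26 antisense ncRNAs that were not tested are all without a CUT or XUT. A further 31 that were tested had fewer than 10 reads in both WT libraries, so they passed the filter through rrp6Δ alone, and all 31 are among those that rose. Both rrp6Δ libraries exceeded both WT libraries in 624 of the 718 tested (86.9%) and lay below both in 39 (5.43%), against 79.0% and 7.33% of the 11227 transcripts tested.

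Summed over the 744, the normalized read counts were 562038 and 564379 in the rrp6Δ libraries and 360669 and 376267 in the WT libraries. Of these sums, 289803 and 291431 in rrp6Δ and 222198 and 235594 in WT come from 107 ncRNAs that overlap a same-strand gene. Their reads cannot be told from those of that gene. Since 102 overlap another annotated ncRNA on their own strand, some reads can be counted more than once. The libraries of each strain lay close together and the strains did not overlap, but with 2 libraries a side an exact two-sided permutation test gives p = 0.333, the smallest it can. These counts rest on the authors' ERCC scaling. Other scalings moved the median of all transcripts by −0.07 (library totals), −0.25 (TMM on genes), −0.54 (TMM on all transcripts), −0.66 (DESeq2) and −0.73 (quantile normalization) on the log2 scale. The median of the antisense ncRNAs was then 1.05, 0.88, 0.59 and 0.47, and it turned to −0.16 under quantile normalization. Set against the median of all transcripts, it was 0.46 higher on the log2 scale by the deposited scaling. It was also 0.46 higher under library totals, TMM on genes, TMM on all transcripts and DESeq2. Under quantile normalization it was 0.10 lower (−0.10). The numbers that rose and fell were 193 and 28 by DESeq2's size factors and 83 and 111 by quantile normalization, against 402 and 7 by the deposited scaling.

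Among the 505 with a CUT or XUT, 325 (64.4%) rose and 5 fell, with a median log2 fold change of 1.27. The kind of overlap divided them. With a CUT, 309 of 330 (93.6%) rose, none fell, and the median was 1.62. Since CUTs were kept for being higher in rrp6Δ in these same libraries, this count restates how CUTs were defined and is no independent evidence. The share was 147 of 161 where a XUT also overlapped and 162 of 169 where none did. With a XUT only, 16 of 175 (9.14%) rose and 5 fell, and the median log2 fold change was 0.59. That median became 0.53, 0.35, 0.05, −0.07 and −0.56 under the scalings in the order given above. Without WT replicate 2, 41 rather than 16 of the XUT-only ncRNAs rose. An absence of CUTs is itself a result of these libraries, here and in the ncRNAs with neither, so these counts are no independent evidence either. How far that absence sets them was not tested. Of the 681 other annotated ncRNAs tested, 42.6% rose and 0.441% fell, and of those that overlap only a XUT, 12 of 131 (9.16%) rose.

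Among the 239 with neither, 213 were tested, 77 (36.2%) rose, 2 fell and the median log2 fold change was 0.76. By other scalings 49 rose and 11 fell (TMM on all transcripts), 32 rose and 15 fell (DESeq2), and 15 rose and 64 fell (quantile). In the other annotated ncRNAs with neither, 76 of 318 (23.9%) rose, with a median of 0.56. The antisense ncRNAs with neither were shorter, with a median length of 1096 nt, against 1451 nt with a CUT or XUT. Of the 77 that rose, 46 had a mean normalized read count under 50, out of 73 tested at that level, and 20 of the 77 had passed the filter through rrp6Δ alone. Above a mean of 50, 9 of 47 rose between 50 and 200, 20 of 78 between 200 and 1000, and 2 of 15 over 1000. Raising the filter to 50 reads gave 35 such calls. In the ncRNAs with a CUT or XUT the same bins gave 55 of 73, 153 of 209, 105 of 190 and 12 of 33.

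**Figure D1:**
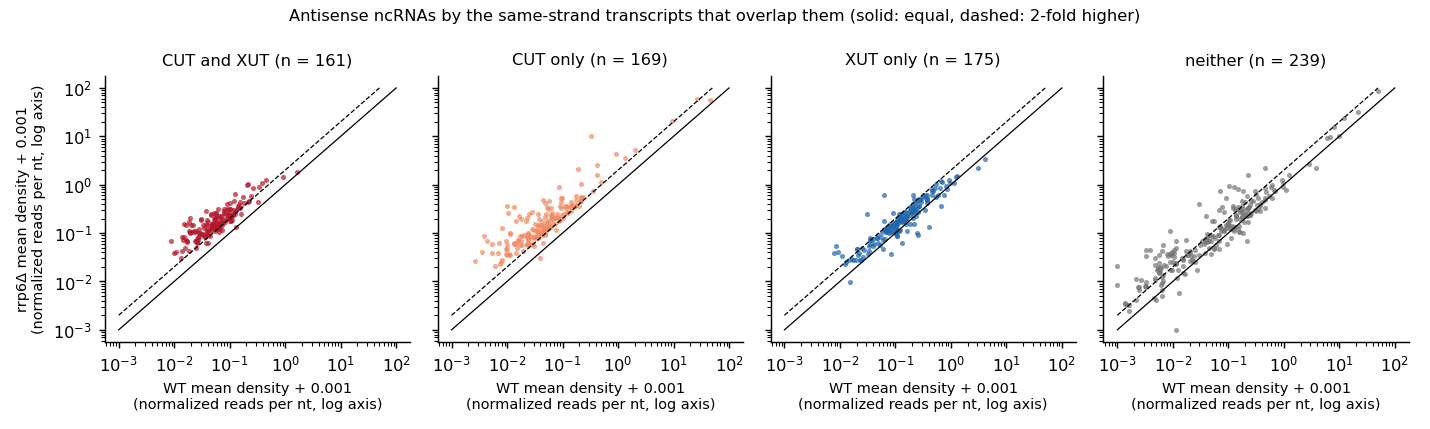
Mean density in rrp6Δ (vertical) against mean density in WT (horizontal), in normalized reads per nt plus 0.001 on log axes, 1 point per antisense ncRNA and 1 panel per kind of same-strand overlap. The solid line marks equal density and the dashed line a 2-fold higher one in rrp6Δ; most of the 330 points with a CUT lie above the dashed line, and most of the 175 with only a XUT lie between the lines.

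**Figure D2:**
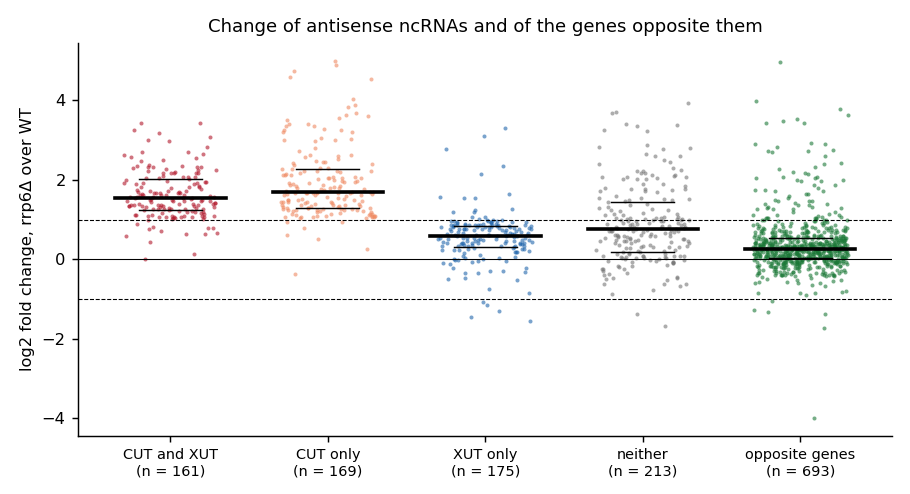
Log2 fold change, rrp6Δ over WT, for each tested antisense ncRNA by its same-strand overlap and for each tested gene opposite one. Points are transcripts, thick bars medians and thin bars quartiles, and dashed lines mark 2-fold changes; the medians are 1.53, 1.68, 0.59, 0.76 and 0.27 from left to right.

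The share that rose was set out by position along the gene. It was 139 of 243 (57.2%) for ncRNAs that cover the start of the gene, 132 of 222 (59.5%) for those inside it, 88 of 153 (57.5%) for those over its end, and 43 of 100 (43%) for those that span the whole gene. Those that also overlap a gene on their own strand, whose reads cannot be told from theirs, rose in 36 of 105 cases (34.3%), against 366 of 613 (59.7%) for those that do not. Where the start of a divergent gene lay within 250 nt of the start of the ncRNA, 112 of 186 (60.2%) rose. By chromosome the shares were 58.1% on I, 54.1% on II and 54.2% on III. None of these differences was tested.

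The largest rises with a CUT or XUT, among ncRNAs above the median count of their group, had fitted log2 fold changes of 3.35 to 5.0. They were picked by the size of the rise. Of the 325 that rose in this group, 309 overlap a CUT, a kind of transcript kept for its rise in these libraries. The p-values given for them are thus a description and no independent evidence. *SPNCRNA.1114* lies fully opposite *SPCC320.06*. It had 3516 and 3630 normalized reads in rrp6Δ and 89.3 and 138 in WT, a log2 fold change of 5.0 (SE 0.17, adjusted p = 1.37e-12), while *SPCC320.06* changed by 0.41. *rpl2702-antisense-1*, whose start is printed above, runs against a gene for a protein of the large ribosomal subunit. It had 445 and 479 normalized reads in rrp6Δ and 14.1 and 19.7 in WT (log2 fold change 4.73, SE 0.23, adjusted p = 3.81e-11), with *rpl2702* at −0.04. The WT libraries are thus close to the lower limit of what is counted for this RNA, and its density was 0.00834 of that of *rpl2702* in rrp6Δ and 0.000297 in WT.

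*sup45-antisense-1* lies opposite the gene of the translation release factor eRF1. It had 328 and 314 normalized reads in rrp6Δ, against 21.2 and 28.4 in WT (log2 fold change 3.67, SE 0.22). *SPNCRNA.1290*, opposite *SPCC70.04c*, had 1799 and 1653 reads in rrp6Δ and 124 and 185 in WT (3.50, SE 0.18). *orc1-antisense-1* is opposite a subunit of the origin recognition complex, which marks where DNA replication begins. It had 286 and 336 reads in rrp6Δ and 28.3 and 27.7 in WT (3.43, SE 0.21). *SPNCRNA.1057*, opposite *etr1*, had 304 and 334 reads in rrp6Δ and 28.3 and 31.3 in WT (3.39, SE 0.21). Each of these ncRNAs had the rrp6Δ libraries far above the WT libraries, with no overlap.

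A pair of ncRNAs runs against *ski3*, which encodes a subunit of the Ski complex, the cofactor of the cytoplasmic exosome. *SPCC1919.05-antisense-1* had 366 and 361 normalized reads in rrp6Δ and 29.2 and 37.2 in WT (log2 fold change 3.44, SE 0.21). *SPCC1919.05-antisense-2* had 554 and 552 in rrp6Δ and 52.1 and 55.4 in WT (3.35, SE 0.18). *ski3* itself changed by 0.55. The ncRNAs of this gene share no position with each other, but they share the gene.

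The largest rises without a CUT or XUT, chosen by the same rule, had log2 fold changes of 2.29 to 3.37. *SPBC337.10c-antisense-1* had 771 and 785 normalized reads in rrp6Δ and 72.5 and 77.2 in WT, a log2 fold change of 3.37 (SE 0.17, adjusted p = 5.00e-11). *SPNCRNA.141*, opposite the small-subunit ribosomal protein gene *rps101*, had 784 and 764 in rrp6Δ and 70.7 and 91.8 in WT (3.25, SE 0.18). It lies wholly inside another gene on its own strand, so its reads cannot be told apart from those of that gene. *rex3-antisense-1* had 1534 and 1722 in rrp6Δ and 211 and 232 in WT (2.87, SE 0.14, adjusted p = 5.00e-11), and *rex3*, named for an RNA exonuclease, changed by −0.08. All 3 had rrp6Δ libraries well above WT libraries.

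*SPNCRNA.1220*, opposite *SPCC191.06*, had 957 and 994 normalized reads in rrp6Δ and 115 and 162 in WT (log2 fold change 2.83, SE 0.17). Its density was 3.96 times that of the opposite gene in rrp6Δ and 0.546 times in WT. *swi3-antisense-1* is opposite a gene of the replication fork protection complex and had 526 and 552 reads in rrp6Δ and 90.1 and 88.2 in WT (2.59, SE 0.17). *SPCC777.06c-antisense-1* changed by 2.5, *SPBC365.11-antisense-1*, opposite the Golgi protein gene *grp2*, by 2.46, and *prl20*, opposite *dpm3* of the enzyme that makes dolichol phosphate mannose, by 2.29. *SPCC777.06c*, *grp2* and *dpm3* changed by 0.33, −0.25 and 0.30, none past the threshold. Among the *prl* RNAs, annotated as poly(A)-bearing RNAs without a long reading frame, 12 of the 15 tested rose, of 19 in the set, against 56% of all tested antisense ncRNAs. Of those 15, 7 overlap a CUT, a kind of transcript kept for its rise in these libraries, and all 7 rose. With only a XUT 0 of 2 rose. Of the 10 with neither, 6 were tested and 5 rose. Among these, *prl15* and *prl25* passed the filter through rrp6Δ alone. The share of *prl* RNAs that rose is thus set in part by the CUT definition and the filter.

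**Figure D3:**
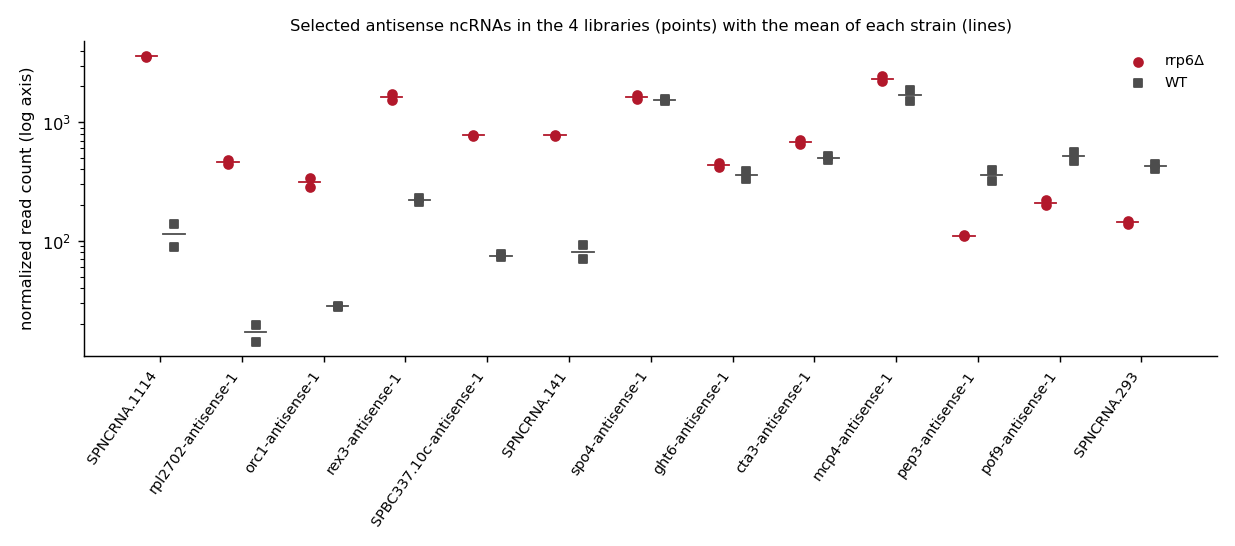
Normalized read count on a log axis for 13 antisense ncRNAs in each library, with rrp6Δ (circles) left of WT (squares) and lines at the mean of each strain. The first 6 are higher in both rrp6Δ libraries, the next 4 are abundant ncRNAs below a 2-fold change, and the last 3 are lower in both rrp6Δ libraries.

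All 7 antisense ncRNAs that fell are without a CUT, and 5 of them overlap a XUT. CUTs were kept for being higher in rrp6Δ in these libraries. Their absence among the 7 thus follows from that definition and is no independent evidence. *pep3-antisense-1* overlaps neither and had 110 and 111 normalized reads in rrp6Δ and 318 and 394 in WT (log2 fold change −1.67, SE 0.18, adjusted p = 4.44e-07), while *pep3*, a gene of vacuolar protein sorting, changed by 0.45. *SPNCRNA.293*, opposite the flocculin-like gene *pfl7*, had 139 and 146 in rrp6Δ and 402 and 446 in WT (−1.56, SE 0.17). *SPBPB10D8.02c-antisense-1* had 154 and 161 in rrp6Δ and 399 and 470 in WT (−1.45, SE 0.17), and it was the only one of the 7 whose opposite gene also fell, with a log2 fold change of −1.32 (SE 0.15). *pof9-antisense-1*, opposite an F-box protein gene, had 199 and 221 in rrp6Δ and 474 and 559 in WT (−1.29, SE 0.16). Of the others, *mis13-antisense-1*, opposite a kinetochore gene, changed by −1.15 and *SPAC16C9.01c-antisense-1* by −1.08. *SPNCRNA.945* had 9.02 and 3 reads in rrp6Δ and 13.3 and 16.8 in WT (−1.37, SE 0.49, adjusted p = 0.0189), and at such counts the size of the fall is uncertain.

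The densest antisense ncRNAs were all higher in rrp6Δ, by 0.26 to 1.22 on the log2 scale, and 3 of the 6 passed the threshold. Of all 718 tested antisense ncRNAs, 660 had a log2 fold change above 0 and 402 (56%) rose. Of all 11227 transcripts tested, 9874 were above 0 and 42.6% rose. *SPBC3B8.03-antisense-1*, which spans the whole of *lys9*, a gene of lysine synthesis, had 163612 and 163739 normalized reads in rrp6Δ and 133516 and 140652 in WT (log2 fold change 0.26). It shares 15% of its length with a gene on its own strand. *SPNCRNA.1651*, opposite *sdh8*, had 37581 and 33432 reads in rrp6Δ and 23601 and 17635 in WT (0.80, SE 0.12). *SPNCRNA.1032*, opposite *SPAC4F10.16c*, had 18132 and 15773 in rrp6Δ and 9542 and 7420 in WT (1.01, SE 0.12), just past the threshold. *SPNCRNA.514* and *SPNCRNA.1490*, both opposite *rrb1*, overlap each other and share reads. *SPNCRNA.1490* had 6369 and 5707 in rrp6Δ and 3336 and 2002 in WT (1.22, SE 0.17). *SPNCRNA.498*, only 100 nt long and inside a gene on its own strand, changed by 0.51.

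Next, the genes opposite were compared. Of the 697 distinct opposite genes, 693 were tested, 74 (10.7%) rose and 6 (0.866%) fell, with a median log2 fold change of 0.27. Of all 5073 genes tested, 6.39% rose and 0.591% fell, and of the 4380 with no such ncRNA, 250 (5.71%) rose. By other scalings, the opposite genes that rose and fell numbered 41 and 24 (TMM on all transcripts), 38 and 47 (DESeq2) and 24 and 32 (quantile). The median density of an antisense ncRNA was 0.206 of that of its gene in rrp6Δ and 0.0992 in WT, and the ncRNA was the denser in 150 of the 744 pairs in rrp6Δ and in 120 in WT. The ratio was 0.341 in rrp6Δ and 0.381 in WT for ncRNAs with only a XUT, against 0.169 in rrp6Δ and 0.0575 in WT for those with only a CUT. In 36 pairs the ncRNA rose and was denser than its gene in rrp6Δ but not in WT. In 81 pairs the ncRNA had under 1% of the density of its gene, where stray reads of the gene on the wrong strand would weigh most. Of those 81, 60 were tested and 34 rose (56.7%), against 56% of all tested antisense ncRNAs. The 56% includes the ncRNAs with a CUT, while 63 of the 81 overlap neither a CUT nor a XUT. Of all tested ncRNAs with neither, 36.2% rose. The part of stray reads was not tested.

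The ncRNA and its gene were then taken as pairs. In 714 pairs with both transcripts tested, the gene rose in 29 of the 401 pairs whose ncRNA rose (7.23%) and in 54 of the 306 whose ncRNA was not called (17.6%). Split by overlap, and with the few ncRNAs that fell counted among those that did not rise, the gene rose with a CUT in 23 of 309 pairs whose ncRNA rose (7.44%) and in 2 of 21 whose ncRNA did not (9.52%). With only a XUT the counts were 1 of 16 (6.25%) and 39 of 157 (24.8%), and with neither 5 of 76 (6.58%) and 13 of 135 (9.63%). Of the 39 XUT-only pairs, 18 have a gene on the meiosis list described next. The difference of these shares was not tested. Across the 714 pairs the log2 fold changes had r = −0.0759 and rho = −0.0886, a description over pairs that share libraries and, for 43 genes, the gene.

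**Figure D4:**
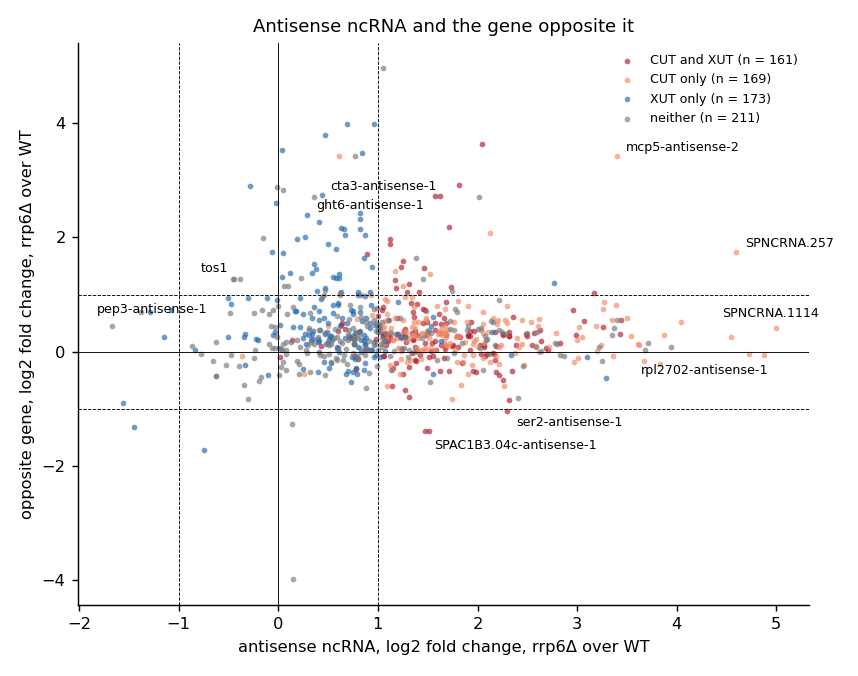
Log2 fold change, rrp6Δ over WT, of each antisense ncRNA (horizontal) and of the gene opposite it (vertical), for the 714 pairs in which both were tested, coloured by same-strand overlap. Dashed lines mark 2-fold changes; the upper left holds genes such as *cta3* and *ght6* that rose opposite an ncRNA below 2-fold.

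Meiotic genes were among the opposite genes that rose. The list of meiosis genes, with all *mug* and *meu* genes, has 181 members in the table, and 50 of them (27.6%) lie opposite an antisense ncRNA, against 13.6% of all genes. Of the 74 opposite genes that rose, 29 are on this list. That is 29 of the 50 list genes opposite an antisense ncRNA, not all of which were tested. The list as a whole also rose often, in 74 of its 177 tested genes (41.8%), counting genes with and without an antisense ncRNA together. Of the 55 tested ncRNAs opposite list genes, 18 (32.7%) rose, against 56% of all tested antisense ncRNAs, with a median log2 fold change of 0.67. By kind of overlap, 14 of the 15 with a CUT rose, 1 of the 27 with only a XUT, and 3 of the 13 tested with neither. The count with a CUT again restates how CUTs were defined. Among the 26 XUT-only pairs of this list with both transcripts tested, the gene rose in 18 and the ncRNA rose in none of those 18. Meiotic mRNAs are known targets of Mmi1 and Rrp6. No difference of these shares was tested.

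Several such genes have an antisense ncRNA denser than the gene. *spo4* encodes a kinase of the second meiotic division. *spo4-antisense-1* had 1579 and 1709 normalized reads in rrp6Δ and 1559 and 1518 in WT (log2 fold change 0.09, SE 0.12, adjusted p = 0.484), and the libraries of the strains lay close together. *spo4* had 8.2 and 10 reads in rrp6Δ and 1.77 and 2.19 in WT and was not tested, so the ncRNA was 122 times as dense as the gene in rrp6Δ and 524 times in WT. *mcp4-antisense-1*, opposite a meiotic gene, had 2227 and 2435 reads in rrp6Δ and 1515 and 1858 in WT (0.47), and *mcp4* rose by 1.08 on the log2 scale but turned to −0.25 under quantile normalization. *SPNCRNA.964*, opposite *mug56*, had 16270 and 16757 in rrp6Δ and 12950 and 18906 in WT (0.08), where the WT libraries enclose those of rrp6Δ.

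*rec7*, required for meiotic recombination, lies opposite 3 named ncRNAs. *rec7* had 76.3 and 83 normalized reads in rrp6Δ and 35.3 and 29.9 in WT (log2 fold change 1.27, SE 0.25, adjusted p = 0.00025). *tos1*, whose start is shown above, had 436 and 469 in rrp6Δ and 600 and 579 in WT (−0.38, SE 0.14, adjusted p = 0.025). *tos2* and *tos3* changed by −0.46 and −0.45. All 3 were lower in both rrp6Δ libraries and none passed 2-fold. *tos1* shares reads with *tos2*, which lies inside it, and with the end of *tos3*. *tos1* was 7.13 times as dense as *rec7* in rrp6Δ and 22.7 times in WT. Under quantile normalization *rec7* turned to −0.55.

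**Figure D5:**
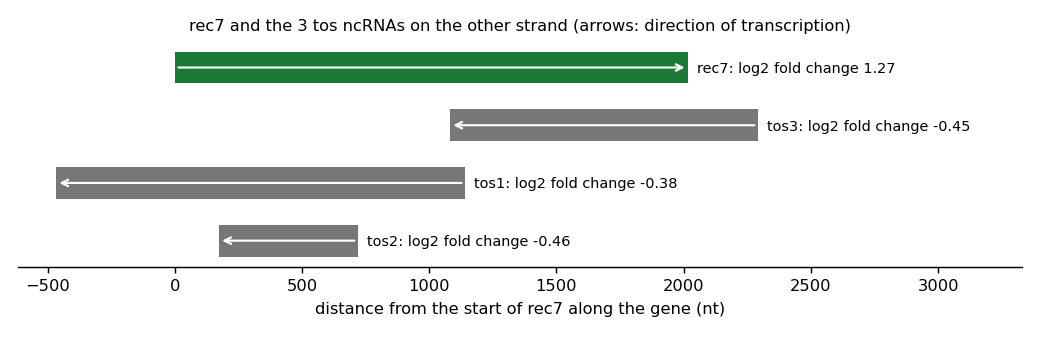
Map to scale of *rec7* and the 3 antisense ncRNAs opposite it, by distance in nt from the start of the gene; arrows give the direction of transcription and numbers the log2 fold change, rrp6Δ over WT. *tos1* runs past the start of *rec7*, *tos2* lies within it, and *tos3* begins beyond its end.

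Of the opposite genes on the membrane transport list 3 of 11 rose, and of those on the mating list 2 of 5. Over the whole lists, 10 of 49 membrane transport genes (20.4%) and 6 of 29 mating genes (20.7%) rose. Of all tested opposite genes 10.7% rose. One of the mating genes, *fus1*, lies opposite an ncRNA that rose as well. *cta3* encodes a cation pump. *cta3-antisense-1* had 651 and 703 normalized reads in rrp6Δ and 483 and 518 in WT (log2 fold change 0.43, SE 0.14), while *cta3* had 710 and 816 in rrp6Δ and 107 and 119 in WT (2.74, SE 0.17, adjusted p = 4.32e-10). *ght6*, a hexose transporter gene, rose by 2.40 opposite *ght6-antisense-1*, which had 422 and 451 in rrp6Δ and 329 and 385 in WT (0.29, SE 0.16). *ste6*, the gene of a Ras exchange factor in the mating pathway, rose by 1.04 opposite an ncRNA at 0.63. Of the lists of opposite genes, 6 of 11 ncRNAs opposite membrane transport genes rose, 2 of 5 opposite mating genes, 1 of 3 opposite stress genes and 2 of 7 opposite ribosomal protein genes, too few for shares to be read against the 56% of all tested. *trr1-antisense-1*, *SPNCRNA.675* and *rpl902-antisense-1*, opposite *trr1* (thioredoxin reductase), *rgs1* (pheromone signalling) and *rpl902* (ribosomal), changed by 0.51, 0.70 and −0.04. *SPNCRNA.743*, opposite the thiamine transporter gene *thi9*, rose by 1.54.

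In other pairs both transcripts rose. *SPNCRNA.257*, opposite the meiotic recombination gene *rec24*, had 130 and 137 normalized reads in rrp6Δ and 5.3 and 4.37 in WT (log2 fold change 4.59, SE 0.30), and *rec24* rose by 1.75. With under 10 reads in both WT libraries, this ncRNA passed the filter through rrp6Δ alone, so its fold change depends on the pseudocount. *mcp5* encodes the cortical anchor of dynein in meiosis. *mcp5-antisense-2* had 81.2 and 134 in rrp6Δ and 9.72 and 8.74 in WT (3.40, SE 0.31), and *mcp5* had 961 and 962 in rrp6Δ and 76 and 104 in WT (3.42, SE 0.18). *mcp5-antisense-1*, at the same gene, changed by 0.61. *SPNCRNA.417* rose by 3.17 opposite *meu22* (1.02), *alr1-antisense-1* by 2.77 opposite the alanine racemase gene *alr1* (1.2), and *SPAC27F1.10-antisense-1* by 2.13 opposite its gene (2.07). The formin gene *fus1* rose by 1.13 opposite *fus1-antisense-1* (1.73), and *caf5*, of a family of transporters, by 1.88 opposite *caf5-antisense-1* (1.13). Under quantile normalization *caf5-antisense-1* turned to −0.43 and *meu22* to −0.42.

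The ncRNA rose and the gene fell in 3 pairs at 2 genes. *guf1* encodes a GTPase of mitochondrial translation. *SPAC1B3.04c-antisense-1* had 2613 and 2712 normalized reads in rrp6Δ and 985 and 929 in WT (log2 fold change 1.48, SE 0.12), and *SPAC1B3.04c-antisense-2*, which overlaps it on the same strand, rose by 1.51. *guf1* had 158 and 176 in rrp6Δ and 387 and 490 in WT (−1.38, SE 0.17, adjusted p = 2.5e-06). *ser2-antisense-1*, opposite the phosphoserine phosphatase gene, had 103 and 135 in rrp6Δ and 20.3 and 27 in WT (2.30, SE 0.26). *ser2* had 2764 and 2831 in rrp6Δ and 5156 and 6450 in WT (−1.04, SE 0.12), a fall just past 2-fold. The libraries of the strains did not overlap in any of these pairs. The largest fall of an opposite gene was that of *alr2*, picked after its values were seen, which had 62.4 and 56 in rrp6Δ and 862 and 1043 in WT (−3.99, SE 0.18), while *alr2-antisense-1* had 161 and 150 in rrp6Δ and 121 and 162 in WT (0.15).

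Genes of RNA decay were set beside the ncRNAs. Of the 37 on this list, *rrp6* fell and *hrr1*, of the RNAi pathway, rose by 1.02, while *exo2* changed by −0.23. An antisense ncRNA lies opposite 4 of them, and all 4 ncRNAs rose, against 56% of all tested antisense ncRNAs, and 3 of the 4 overlap a CUT, a kind of transcript kept for its rise in these libraries. Among these, *pab2-antisense-1* rose by 2.06, *SPCC550.03c-antisense-1*, opposite *ski2*, by 1.93, and *SPNCRNA.735*, opposite the exosome helicase gene *mtr4*, by 1.63, as did the ncRNA opposite *cid14*, of the TRAMP poly(A) polymerase, while *pab2*, *ski2* and *mtr4* changed by 0.08, 0.04 and 0.11. *meu16*, opposite *mde6*, rose by 1.05 and turned to −0.11 under quantile normalization. Among other named RNAs, *prl56* rose by 3.26, *prl54*, opposite the checkpoint gene *hus1*, by 1.61, and *prl67*, opposite the anti-silencing gene *epe1*, by 1.15.

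At the edge of the rule, *SPAC1F8.04c-antisense-1* and *fbp1-antisense-1* were each covered at 50% to the nearest percent, and they changed by 0.75 and 0.64. Just outside it, *SPCC613.08-antisense-1* and *SPAC683.02c-antisense-1*, each 49.6% covered, changed by 1.06 and 1.25. Requiring 80% coverage left 287 ncRNAs that rose and 43 opposite genes that rose. That rule makes the set smaller, so these counts cannot be read against those of the full set.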

How the data were processed

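Strand-specific, rRNA-depleted total RNA from 2 rrp6Δ and 2 WT cultures (biological replicates per the methods) was sequenced in pairs. According to the methods, the authors mapped the reads with TopHat, normalized on ERCC spike-in RNA and defined CUTs by segmentation and DESeq on these libraries. The general methods name a genome release of the ASM294v2 assembly and HTSeq for counting, but do not say whether this table was made with them. The deposited values are a signal, a normalized read count per transcript and library, and the density derived from it. Each normalized count was a whole number of reads times 1 library factor (0.820 and 1 in rrp6Δ, 0.884 and 0.729 in WT). All values (100%) were whole within 1e-06. The recovered counts and their totals are the depth quoted.

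Coding-sequence pieces (10204) and duplicate transcripts (28) were left out. Overlap was computed from the coordinates. limma 3.58.1 with a trend was run on log2(normalized count + 0.729) over 11227 transcripts, kept by edgeR's filterByExpr at a minimum of 10 reads, with no covariates. Fold changes are on this scale, which understates the change of low transcripts. Calls needed a Benjamini-Hochberg adjusted p under 0.05 and over 2-fold. The scripts were tested on simulated data.

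The members and gene lists were chosen with earlier results of these data known. From the lists, 6 genes that do not belong to the named process were taken out after the table was opened. Named ncRNAs are those with the largest rise in each group, above the median count of the group (8 each), all that fell, the 3 densest of each group, up to 3 opposite each list, the most abundant with their own names, pairs with both genes changed, and those at the 50% edge. Alternatives were edgeR 4.0.16 and DESeq2 1.42.0 on the recovered counts, 5 scalings, 2 filters, 2 pseudocounts, no trend, a stricter p, a replicate block, each library left out, and other rules for overlap. Intervals and p-values cover the spread between these libraries only.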

Additional observations from a re-analysis of the deposited data

How the results depend on the processing

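With DESeq2's own size factors, 193 antisense ncRNAs rose and 28 fell, 161 that rose with a CUT or XUT, 32 that rose and 15 that fell without, and 38 opposite genes rose and 47 fell. With TMM over all transcripts, the same 7 counts were 236, 21, 187, 49, 11, 41 and 24. With quantile normalization they were 83, 111, 68, 15, 64, 24 and 32. With TMM on genes, the ncRNAs without a CUT or XUT that fell were 4 and the opposite genes that fell were 12. All are counts by the rule of the report (402, 7, 325, 77, 2, 74 and 6). The ncRNAs without a CUT or XUT that fell were 1 under DESeq2 with the deposited factors, a minimum of 50 reads, a 10 times larger pseudocount, no trend and an adjusted p under 0.01. With a minimum of 50 reads, 35 without a CUT or XUT rose. With 80% coverage, 43 opposite genes rose and 3 fell. With a CUT or XUT over at least 50% of the ncRNA, 185 counted as without rose. The causes of these moves were not tested, except that the last 3 change the number of transcripts tested or their group.

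Leaving out each library gave 366 to 436 antisense ncRNAs that rose and 5 to 9 that fell, 294 to 347 and 63 to 89 that rose with and without a CUT or XUT, 1 to 3 without that fell, and 64 to 89 opposite genes that rose and 4 to 7 that fell. The lone library was then assumed to vary like the others. The replicate block left the counts at 402 and 7, and the replicate numbers did not pair the libraries (r = 0.0112 over 11227 transcripts). Of the fold changes of the named ncRNAs and genes, 1980 values kept their call, 88 lost it, 14 gained one and 5 reversed, all under quantile normalization: *meu16* −0.11, *caf5-antisense-1* −0.43, *mcp4* −0.25, *meu22* −0.42 and *rec7* −0.55. Precision is limited by 2 libraries per strain and, below about 50 reads, by counting error.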
